A study of Mus musculus with 5 samples.

Results

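The AP-1 transcription factor genes Fos, Fosb, Fosl1, Fosl2, Jun, Junb, Jund and Atf3 were compared between autophagy-high (AThi) and autophagy-low (ATlo) mouse pancreatic cancer cells. These 8 members were taken by symbol from a table of 52459 genes, each symbol stood in 1 row, and all 8 passed the low-value filter, set at a 5-library mean of 1 FPKM. FPKM are fragments scaled by transcript length and library depth, which is meant to let levels of different genes be set side by side. The lengths used are not given, so comparisons between genes are approximate. Per the labels, every library came from HY15549 cells of C57BL/6 background carrying a GFP-LC3-RFP reporter, in which the ratio of green to red signal reads autophagy flux. The cells were cultured as organoids in Matrigel with DMEM and 10 % FBS, brought to single cells and separated on that ratio, giving 2 AThi libraries and 3 ATlo libraries. AThi and ATlo cells thus shared the line, the reporter, the culture and the dissociation, and the labels name no further treatment. Whether replicates came from separate cultures is not stated, so the p-values measure only the spread between these libraries.

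AP-1 is a dimer of basic leucine zipper (bZIP) proteins. JUN proteins pair with each other or with FOS proteins, whereas FOS proteins need a partner such as JUN, and ATF3 joins the same network and often acts as a repressor. Fos, Fosb, Jun, Junb and Atf3 are immediate-early genes, whose short-lived transcripts appear soon after growth factor, kinase or stress signals and also after cell handling, while Fosl1 (FRA1) is known as a sustained target of RAS and ERK signalling in epithelial tumours.

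Of the 8 members, 7 rose and 1 fell in AThi cells. The rises were led by Atf3, which averaged 335 ± 117 FPKM over the AThi libraries (SD, n = 2) and 76.1 ± 24.7 FPKM over the ATlo libraries (SD, n = 3), and included Fos, Fosb, Fosl2, Jun, Junb and, least of all, Jund. Fosl1 was the single member that fell, with 23.2 ± 2.26 FPKM over the AThi libraries (SD, n = 2) and 38.9 ± 2.67 FPKM over the ATlo libraries (SD, n = 3). Calls were made with limma over 11397 genes at a Benjamini-Hochberg adjusted p under 0.05, and fold changes are AThi minus ATlo on the log2(FPKM + 0.5) scale. Over all genes tested, 51.6% were called, 22.2% as higher and 29.4% as lower in AThi, so a call alone is common in this comparison. Which direction had more calls depended on the scaling: 43.0% of the calls were higher in AThi as deposited, and 51.1% when library medians were aligned. A called rise of at least 2-fold was found in 2.38% of all genes and in 6 of the 8 members. The median log2 fold change was 1.52 over the members and -0.03 over all genes tested. Library values of AThi and ATlo did not overlap in any of the 8 members, as in 70.3% of all genes.

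**Figure D1:**
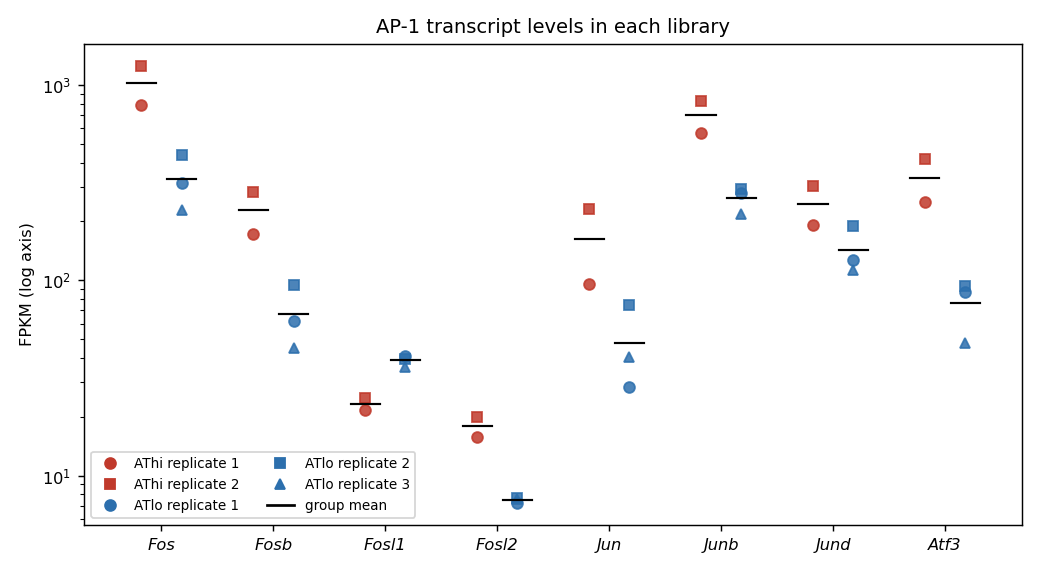
FPKM of each member on a log axis, with red symbols for the 2 AThi libraries, blue symbols for the 3 ATlo libraries and black lines for group means. AThi lies above ATlo for every member except Fosl1, and for Jund the lower AThi library (191 FPKM) is close to the highest ATlo library (189 FPKM).

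Promoter sequences from RefSeq (GRCm38.p6), running from 250 bases before to 50 bases after a transcription start, were matched for 7 of the 8 members. They are shown for the 5 members with the largest rises, 5′ to 3′ on the gene's own strand. Capitals mark matches on either strand to TGACG, the core of the cAMP response element (CRE), to TATAAA, the TATA box, or to TGACATCA, a site known from the Jun promoter. The Fos window is chr12:85473640-85473939 (plus strand), the Fosb window chr7:19309996-19310295 (minus strand), the Jun window chr4:95052173-95052472 (minus strand), the Junb window chr8:84978699-84978998 (minus strand) and the Atf3 window chr1:191183284-191183583 (minus strand).
Atf3: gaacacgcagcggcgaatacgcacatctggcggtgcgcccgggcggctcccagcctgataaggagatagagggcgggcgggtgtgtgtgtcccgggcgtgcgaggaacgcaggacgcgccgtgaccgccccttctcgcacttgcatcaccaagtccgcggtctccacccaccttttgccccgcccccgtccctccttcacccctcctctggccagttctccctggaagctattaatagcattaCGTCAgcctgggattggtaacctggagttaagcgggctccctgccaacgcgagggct
Fosb: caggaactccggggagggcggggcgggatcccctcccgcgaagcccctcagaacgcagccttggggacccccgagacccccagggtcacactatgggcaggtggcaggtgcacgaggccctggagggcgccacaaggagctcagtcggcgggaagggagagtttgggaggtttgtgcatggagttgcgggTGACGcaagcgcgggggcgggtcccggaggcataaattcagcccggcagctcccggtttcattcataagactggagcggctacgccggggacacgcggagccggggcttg
Jun: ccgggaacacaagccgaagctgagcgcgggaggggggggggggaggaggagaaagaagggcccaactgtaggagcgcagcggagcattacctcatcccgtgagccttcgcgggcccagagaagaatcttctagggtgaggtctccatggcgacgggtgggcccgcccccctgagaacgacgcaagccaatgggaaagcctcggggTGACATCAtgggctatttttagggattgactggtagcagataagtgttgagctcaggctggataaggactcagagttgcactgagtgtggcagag
Fos: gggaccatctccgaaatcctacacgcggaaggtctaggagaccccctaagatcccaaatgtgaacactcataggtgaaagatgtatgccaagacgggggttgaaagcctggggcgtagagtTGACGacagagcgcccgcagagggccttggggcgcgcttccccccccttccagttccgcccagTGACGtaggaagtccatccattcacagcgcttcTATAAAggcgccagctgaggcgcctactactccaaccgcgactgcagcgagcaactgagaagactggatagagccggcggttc
Junb: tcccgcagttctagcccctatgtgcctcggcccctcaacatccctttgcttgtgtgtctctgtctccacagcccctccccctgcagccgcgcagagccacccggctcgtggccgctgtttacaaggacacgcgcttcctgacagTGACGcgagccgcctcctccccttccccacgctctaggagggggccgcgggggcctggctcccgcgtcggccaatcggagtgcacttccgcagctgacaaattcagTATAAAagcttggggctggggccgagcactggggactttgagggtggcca
The TGACG core was found in 4 of the 7 windows, those of Fos, Fosb, Junb and Atf3, and in 20.8% of 32851 promoter windows of the same length. The GC content was 58.7%, 68.3%, 65.3% and 64.7% in these windows, against a median of 52.7% over all promoters. It was 60.0% for Jun, 64.7% for Fosl2 and 46.7% for Jund. The shares were not matched for GC content, and its part was not tested. Fos held it at 2 places. TATAAA was found in the Fos and Junb windows and in 13.6% of all windows, and TGACATCA in the Jun window and in 3.62% of all windows. The TATAAA of Fos lay at bases -33 to -28 from the start used for its window, and that of Junb at bases 1 to 6. These matches are of letters, not of position. The full CRE TGACGTCA, which contains the core, the AP-1 site TGANTCA and the CArG box of serum response factor matched none of the 7 windows, against 1.79%, 7.81% and 1.63% of all windows. The search covered only these letters within 300 bases and measured no binding. The starts used for the windows did not always match the gene bounds of GENCODE M21 given below. The Jund window (chr8:70697489-70697788, plus strand) ends before the annotated gene begins. The Atf3 and Fosl2 windows lie inside the annotated genes. The start used for Junb lies upstream of the annotated start at 84978718. The TATAAA of Junb therefore lies upstream of that annotated start, and its position depends on the start used.

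Among the FOS genes, Fos itself had the highest level. Fos reached 785 and 1252 FPKM in AThi, against 313, 440 and 229 FPKM in the ATlo libraries. On GRCm38 (GENCODE M21) the gene lies on chromosome 12 (85473890 to 85477273, plus strand). Both AThi libraries lay above all ATlo libraries, and among all rows of the table Fos ranked 32 and 15 in AThi against 87, 53 and 117 in ATlo. Its log2 fold change was 1.65 ± 0.29 (SE), with a 95% interval of 0.95 to 2.35 and an adjusted p of 0.00359. Fosb, a close relative of Fos, was at 172 and 284 FPKM in AThi, against 62.1, 94.2 and 44.9 FPKM in ATlo. It lies on chromosome 7 (19302696 to 19310051, minus strand). Its libraries stood in the same order as those of Fos, and it rose by 1.78 ± 0.32 (SE), adjusted p 0.00380 in limma. The values are per gene and do not separate the full-length FosB transcript from the shorter ΔFosB form.

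The FOS-related antigens moved in opposite directions. Fosl2 lies on chromosome 5 (32135801 to 32157842, plus strand) and Fosl1 on chromosome 19 (5447547 to 5455946, plus strand). Fosl2, which encodes FRA2, was at 15.8 and 20.0 FPKM in AThi, against 7.23, 7.70 and 7.58 FPKM in ATlo. It had the lowest level of the 8 members and rose by 1.19 ± 0.10 (SE), with a 95% interval of 0.95 to 1.44 and a limma adjusted p of 2.07e-04. Fosl1, which encodes FRA1, was at 21.6 and 24.8 FPKM in AThi, against 41.1, 39.5 and 35.9 FPKM in ATlo. Both AThi libraries lay below all ATlo libraries, and the log2 fold change was -0.74 ± 0.09 (SE), with a 95% interval of -0.94 to -0.53 and a limma adjusted p of 6.88e-04. The ratio of Fosl1 to Fosl2 was therefore 1.37 and 1.24 in AThi, against 5.69, 5.13 and 4.74 in ATlo. On the annotation used, 1163 of the 2033 exonic bases of Fosl1 are shared with Ccdc85b on the opposite strand, and the strand setting of the counting is not given in the sources used here. Ccdc85b was at 53.3 and 40.3 FPKM in AThi, against 62.1, 53.3 and 53.5 FPKM in ATlo, and was not called (log2 fold change -0.27, adjusted p 0.114). If strand was not used, reads of Fosl1 and Ccdc85b cannot be told apart where they overlap.

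All 3 JUN genes rose in AThi cells, by different amounts. Junb lies on chromosome 8 (84974484 to 84978718, minus strand) and Jun, a gene with 1 exon, on chromosome 4 (95049034 to 95052222, minus strand). Junb, which binds the same sites as JUN and often activates them less, was at 569 and 828 FPKM in AThi, against 281, 294 and 219 FPKM in ATlo. It had the highest level of the JUN genes in every library and rose by 1.39 ± 0.19 (SE), with a 95% interval of 0.94 to 1.83 and a limma adjusted p of 0.00113. Jun, the founding member, was at 95.6 and 231 FPKM in AThi, against 28.3, 74.7 and 40.3 FPKM in ATlo. The libraries of each group differed widely from each other, and the log2 fold change of 1.74 ± 0.47 (SE) had a 95% interval of 0.63 to 2.85 and an adjusted p of 0.0188. Without AThi replicate 2 it was 1.11 with an adjusted p of 0.129, so the call of Jun rests on that library, and without AThi replicate 1 it was 2.38 with an adjusted p of 0.0149.

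Jund, the JUN gene known for steady expression in resting cells, was at 191 and 303 FPKM in AThi, against 127, 189 and 113 FPKM in ATlo. It has 1 exon and lies on chromosome 8 (70698949 to 70700616, plus strand). Its log2 fold change of 0.79 ± 0.26 (SE) was the smallest of the 7 rises, with a 95% interval of 0.17 to 1.40 and a limma adjusted p of 0.0397. The call was lost without AThi replicate 2 (0.45, adjusted p 0.248), without ATlo replicate 1 (0.72, adjusted p 0.101) and without ATlo replicate 3 (0.63, adjusted p 0.0880). Genes on the opposite strand share 173 exonic bases with Junb (Prdx2), 877 with Jund (Gm11175) and 232 with Jun (Junos). Prdx2 was at 72.7 and 75.3 FPKM in AThi, against 89.0, 95.9 and 91.0 FPKM in ATlo. Junos did not exceed 0.190 FPKM and Gm11175 did not exceed 1.70 FPKM in any library.

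Atf3, an activating transcription factor gene that responds to stress, had the largest log2 fold change of the 8 members. The gene lies on chromosome 1 (191170296 to 191218039, minus strand). It was at 252 and 418 FPKM in AThi, against 87.2, 93.4 and 47.8 FPKM in ATlo. The lower AThi library stood well above the highest ATlo library, and Atf3 rose by 2.15 ± 0.32 (SE), with a 95% interval of 1.39 to 2.90 and a limma adjusted p of 0.00171. In rank within a library it stood at 110 and 67 in AThi, against 488, 439 and 1075 in ATlo. By log2 fold change, Atf3 lay at percentile 99.9 of all genes tested, Fosb at 99.7, Jun at 99.6, Fos at 99.5, Junb at 99.0, Fosl2 at 98.4, Jund at 95.4 and Fosl1 at 7.62.

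**Figure D2:**
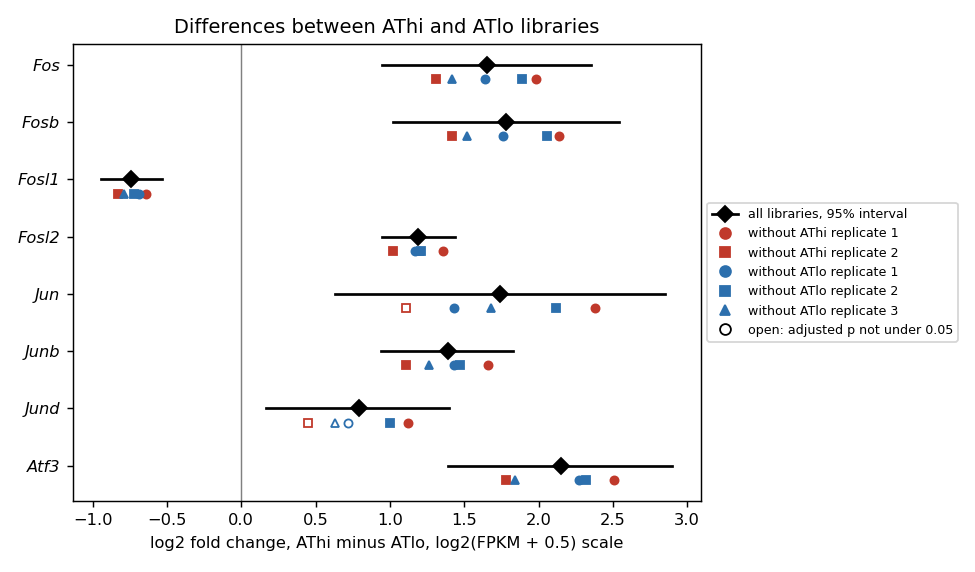
Log2 fold change of each member (black diamond) with its 95% interval from limma, and beneath it the values with each library left out (symbols by library, open where the adjusted p was not under 0.05). Open symbols occur for Jun (1 library left out) and Jund (3 libraries left out), and Fosl1 alone lies below 0.

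The levels kept much of their order between the populations. In AThi cells the mean levels ran from Fos through Junb, Atf3, Jund, Fosb, Jun and Fosl1 to Fosl2, and in ATlo cells from Fos through Junb, Jund, Atf3, Fosb, Jun and Fosl1 to Fosl2. Atf3 stood above Jund in AThi cells, where their libraries overlapped, and below it in ATlo cells, where they did not. Fos exceeded Junb in 5 of 5 libraries, although the ranges of both genes overlapped in each population. Among the other neighbours in these orders, Jund and Fosb overlapped in AThi cells, Fosb and Jun in both populations, and Atf3 and Fosb as well as Jun and Fosl1 in ATlo cells. Summed over the 8 members, AP-1 transcripts made up 0.723% and 1.17% of all FPKM in the AThi libraries, against 0.314%, 0.418% and 0.250% in the ATlo libraries.

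The make-up of each family differed in part between the populations. Fosl1 held 2.17% and 1.57% of the summed FOS-family FPKM in AThi, against 9.71%, 6.79% and 11.3% in ATlo. Fos held 79.0% and 79.2% in AThi, against 73.9%, 75.7% and 72.2% in ATlo. Fosb held 17.3% and 18.0% in AThi, against 14.7%, 16.2% and 14.1% in ATlo. The groups did not overlap in any of these 3 shares. Jund held 22.3% and 22.2% of the summed JUN-family FPKM in AThi, against 29.1%, 33.9% and 30.3% in ATlo. Shares of Jund and Fosl1 thus were lower, and those of Fos and Fosb higher, in both AThi libraries than in all ATlo libraries. Jun held 11.2% and 16.9% in AThi, against 6.48%, 13.4% and 10.8% in ATlo, where the groups overlapped. They also overlapped for Junb, with 66.5% and 60.8% in AThi, against 64.4%, 52.7% and 58.9% in ATlo. Fosl2 held 1.59% and 1.27% of the FOS-family sum in AThi, against 1.71%, 1.32% and 2.39% in ATlo, again with overlap. The ratio of summed FOS-family to summed JUN-family FPKM was 1.16 in both AThi libraries, against 0.97, 1.04 and 0.85 in ATlo. These shares and ratios are descriptions of transcripts, with no test, and they depend on the length used for each gene.

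**Figure D3:**
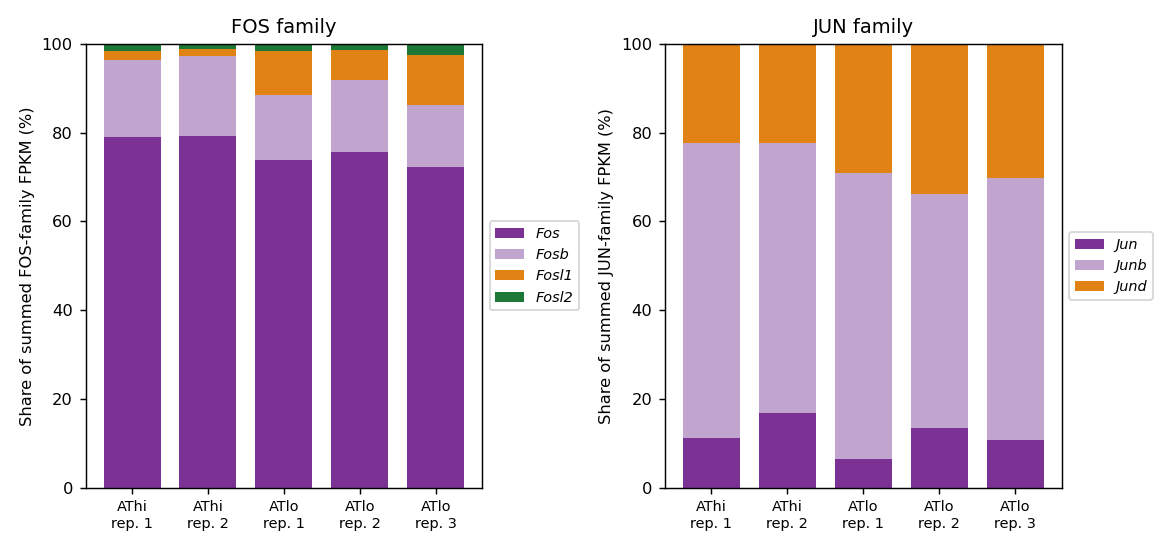
Share of the summed FPKM of the FOS family (left) and the JUN family (right) held by each gene, with 1 bar per library and AThi left of ATlo. The Fosl1 segment is 2.17% and 1.57% in AThi and between 6.79% and 11.3% in ATlo, and the Jund segment is narrower in AThi.

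Within a population the members varied more than most genes. The within-group SD on the log2 scale was 0.77 for Jun, 0.53 for Fosb, 0.52 for Atf3, 0.47 for Fos, 0.42 for Jund and 0.29 for Junb, against a median of 0.09 over all genes tested. These 6 members lay above percentile 95 of all genes in that SD, while Fosl2 (0.14) and Fosl1 (0.11) lay at percentiles 75.3 and 62.9. All 8 members were higher in AThi replicate 2 than in AThi replicate 1, by a ratio of 2.41 for Jun, 1.66 for Atf3 and 1.15 for Fosl1. The ratio of ATlo replicate 2 to ATlo replicate 1 was 2.64 for Jun, 1.52 for Fosb, 1.48 for Jund and 1.41 for Fos. It was 1.07 for Atf3 and Fosl2, 1.05 for Junb and 0.96 for Fosl1. Among ATlo libraries, replicate 2 was the highest for 7 members and replicate 3 the lowest for 6. The highest and lowest ATlo libraries differed by a ratio of 2.64 for Jun, 2.10 for Fosb and 1.07 for Fosl2. Counting error is small beside this spread: from the implied depths and the annotated exon lengths, the lowest value of any member in any library corresponds to about 1210 reads (Fosl1, AThi replicate 1).

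**Figure D4:**
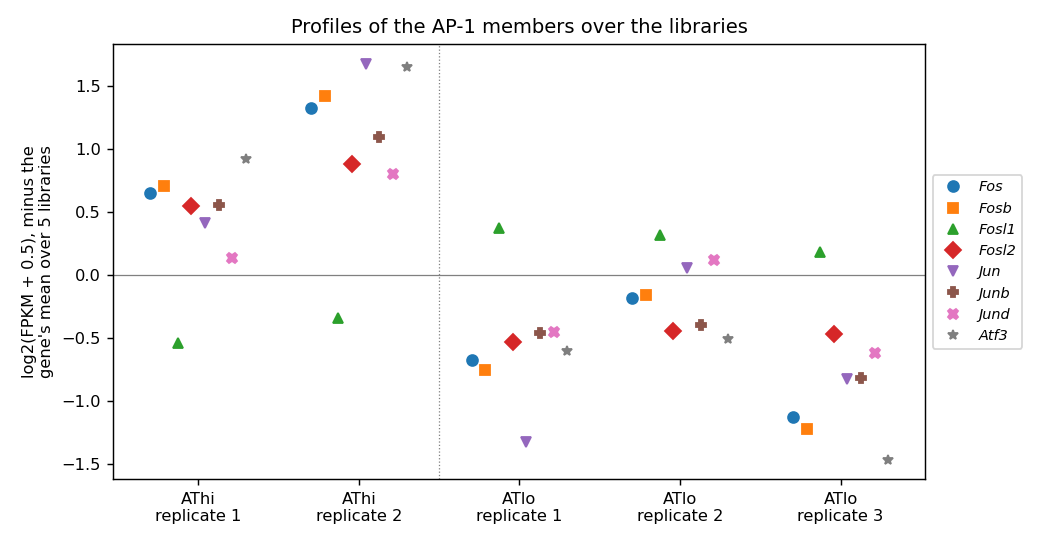
Log2(FPKM + 0.5) of each member minus its own mean over the 5 libraries, with AThi libraries left of the dotted line and ATlo libraries right of it. The 7 members that rose are above their mean in both AThi libraries, Jun spreads the most within a population, and Fosl1 runs the other way.

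The genes with the most similar profiles were sought by the root mean square (RMS) difference of mean-centred log2 values over the 5 libraries, among all tested genes that were no members. Fos and Fosb had the same nearest genes, Ppp1r15a (GADD34, a stress-induced phosphatase subunit) at an RMS difference of 0.0930 and 0.125, and Zfp36 at 0.118 and 0.139. These were followed by Id3 for Fos (0.142) and Dusp1 for Fosb (0.152). Junb was nearest to Socs3 (0.0534), Egr1 (0.0708) and Bhlhe40 (0.0821), and Atf3 to Nr4a1 (0.167), Btg2 (0.176) and Dusp1 (0.195). Jund was nearest to Klf10 (0.102), Nfkbia (0.107) and Ier3 (0.112), and Jun to AA467197 (0.190), Gda (0.216) and Id1 (0.267). Fosl2 was nearest to Col27a1 (0.0312), Bsg (0.0417) and Slc22a4 (0.0543). Fosl1 was nearest to the mitochondrial ribosomal protein genes Mrps6 (0.0344) and Mrpl11 (0.0376) and to Crip1 (0.0351), which all fell. Among the members, Fos and Fosb were the most alike, at an RMS difference of 0.0780, and Fosl1 and Atf3 the least, at 1.45. With 5 libraries in 2 groups, many genes share such a profile.

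Of 11 further bZIP genes whose products can pair with FOS or JUN proteins or compete with them, 8 were tested. In AThi cells 4 rose, 1 fell and 3 were not called, and the median was 0.30 on the log2 scale, where 51.6% of all genes were called. Maff, which encodes a small MAF protein without a transactivation domain, was at 35.9 and 54.0 FPKM in AThi, against 19.3, 22.1 and 17.7 FPKM in ATlo, a rise of 1.15 ± 0.17 (SE). Its relative Mafk rose by 0.79 ± 0.19 (SE), or by 0.43 without AThi replicate 2, and its call was lost with no filter on low values (adjusted p 0.0637). Atf7, a partner of JUN, rose by 0.56 ± 0.07 (SE). Batf2, an inhibitory partner of JUN, was at 1.70 and 1.65 FPKM in AThi, against 5.22, 3.75 and 4.01 FPKM in ATlo, a log2 fold change of -1.14 ± 0.14 (SE). The repressor gene Jdp2 was not called, at 2.43 and 3.26 FPKM in AThi, against 2.98, 2.87 and 2.98 FPKM in ATlo, and it is named here after its values were seen.

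Among 9 genes of serum response factor, its cofactors and the CREB family, 2 rose, 3 fell and 4 were not called, with a median of -0.03. The called share of 55.6% was near the 51.6% of all genes. Srf was at 18.0 and 26.2 FPKM in AThi, against 16.0, 16.3 and 15.4 FPKM in ATlo. Its log2 fold change of 0.44 ± 0.14 (SE) had an adjusted p of 0.0397, and the call was lost without AThi replicate 2 (0.17, adjusted p 0.137; 0.70 without AThi replicate 1) and without each ATlo library (adjusted p 0.0688 to 0.0832), so that without any of these 4 libraries 1 gene rose. The cofactor gene Mkl2 rose by 0.49 ± 0.09 (SE), whereas Mkl1 changed by -0.35 ± 0.08 (SE) and the ternary complex factor gene Elk3 by -0.52 ± 0.07 (SE). Without AThi replicate 1, 1 gene of this list fell.

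Among 18 tested kinase genes of the ERK, JNK and p38 cascades, whose products phosphorylate AP-1 proteins or their activators, 4 rose, 3 fell and 11 were not called, with a median of -0.05. The called share was 38.9%, below the 51.6% of all genes. Map3k1, an upstream kinase of the JNK cascade, was at 14.2 and 14.3 FPKM in AThi, against 7.59, 7.85 and 8.26 FPKM in ATlo, a rise of 0.82 ± 0.07 (SE). Map2k3, a kinase of p38, changed by -0.73 ± 0.06 (SE), Mapk11, a p38 gene, by -0.65 ± 0.07 (SE), and Map2k2, a kinase of ERK, by -0.34 ± 0.07 (SE). The number that rose was 1 without AThi replicate 2, without ATlo replicate 2 or without ATlo replicate 3. These are transcript levels, and kinase activity was not measured.

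Of 10 genes that act in the turnover of AP-1 proteins or of AU-rich mRNAs such as that of Fos, 4 rose, 4 fell and 2 were not called. The 3 genes of the ZFP36 family, whose products bind AU-rich elements and promote mRNA decay, all rose. Zfp36 (tristetraprolin) was at 187 and 280 FPKM in AThi, against 78.4, 90.6 and 46.1 FPKM in ATlo, a rise of 1.72 ± 0.29 (SE). Zfp36l1 rose by 1.48 ± 0.08 (SE) and Zfp36l2 by 0.75 ± 0.10 (SE). Hnrnpd, which encodes the AU-rich element binding protein AUF1, changed by -0.51 ± 0.07 (SE). The number that fell was 2 without AThi replicate 1, ATlo replicate 1 or ATlo replicate 2, and 1 without AThi replicate 2 or ATlo replicate 3, and it was 2 after rescaling to TPM and 1 when library medians were aligned.

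Known AP-1 target genes moved in both directions, as did the tested genes at large. Of 14 tested of 18, 3 rose, 7 fell and 4 were not called, and their median was -0.47 on the log2 scale. Over all genes tested, 22.2% were called higher and 29.4% lower in AThi. Mmp13, a collagenase gene, was at 0.420 and 0.470 FPKM in AThi, against 4.21, 7.17 and 8.32 FPKM in ATlo, a log2 fold change of -2.85 ± 0.25 (SE) and a limma adjusted p of 2.14e-04. Timp1, an inhibitor of such proteases, changed by -1.01 ± 0.11 (SE). In the other direction, Hmox1, the haem oxygenase gene, was at 25.9 and 38.0 FPKM in AThi, against 11.3, 13.9 and 13.8 FPKM in ATlo, a rise of 1.24 ± 0.16 (SE). Mmp3, Mmp9, Plau and Il6 were below the filter.

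**Figure D5:**
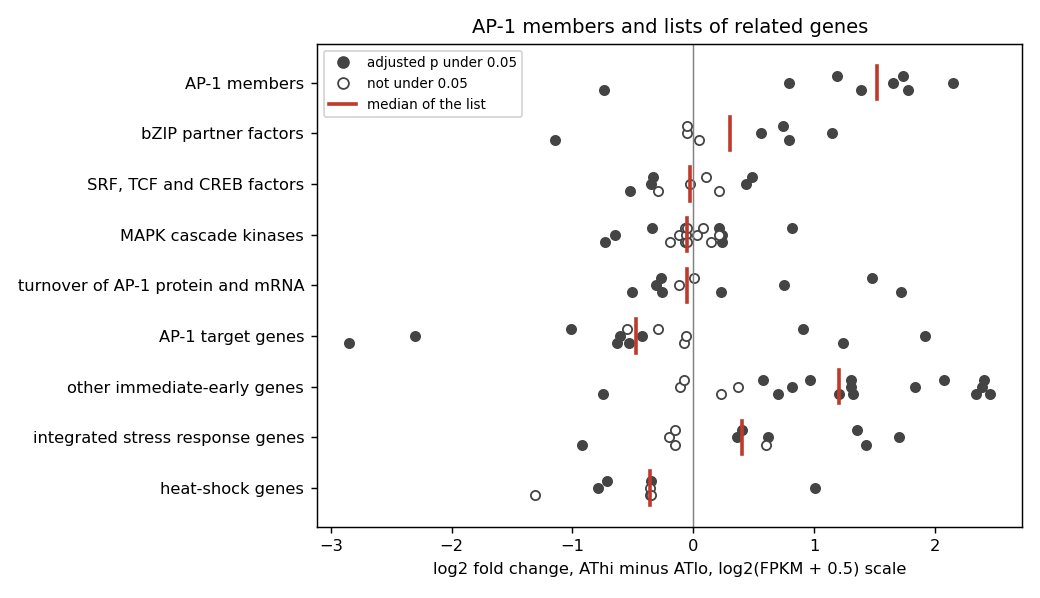
Log2 fold change of the AP-1 members and of the tested genes in 8 lists of related genes, with filled circles for an adjusted p under 0.05, open circles otherwise and red bars for medians. The AP-1 members (median 1.52) and the other immediate-early genes (median 1.21) lie mostly above 0, and the AP-1 target genes have a median of -0.47.

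Other signals of response to stimuli and handling were measured beside the members. Of 19 other immediate-early genes, 14 rose, 1 fell and 4 were not called, and their median was 1.21 on the log2 scale. Their called share was 78.9%, against 51.6% of all genes. The zinc finger genes Egr2 and Egr3 rose by 2.34 ± 0.17 and 2.39 ± 0.27 (SE), Btg2, an antiproliferative gene, by 2.46 ± 0.35 (SE) and Arc by 2.41 ± 0.19 (SE). Sgk1, the gene that fell, was not called without AThi replicate 1. Of 11 genes of the integrated stress response, a known inducer of Atf3, 6 rose, 1 fell and 4 were not called. Their median was 0.40 and their called share 63.6%. Ppp1r15a, Ddit3 and Cebpb rose by 1.70 ± 0.24, 1.43 ± 0.30 and 1.36 ± 0.17 (SE), while the asparagine synthetase gene Asns changed by -0.92 ± 0.07 (SE). Without AThi replicate 2, 3 genes rose and 3 fell, and Ddit3 was at 1.08 with an adjusted p of 0.0596. Of 8 heat-shock genes, 1 rose, 3 fell and 4 were not called, with a median of -0.36. Dnajb1 rose by 1.01 ± 0.25 (SE), a call lost without AThi replicate 2 (0.62, adjusted p 0.0841), while Hsph1, Hspb1 and Hspa8 changed by -0.79, -0.71 and -0.35. Without AThi replicate 1 the log2 fold change of Hspb1 was -0.45, and without ATlo replicate 1, 6 heat-shock genes fell. The part of dissociation and sorting in the levels of the AP-1 members was not tested.

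The implied depth of the libraries was 27.6 to 45.0 M reads (M, mega). The mitochondrially encoded share of all FPKM was 10.0% and 7.51% in AThi, against 5.98%, 5.61% and 5.53% in ATlo, and its part in the results was not tested. Epithelial markers, such as keratin genes and Epcam, were measured above the filter for 7 of 8 genes, and their summed level was 3582 to 4246 FPKM in AThi and 3830 to 4510 FPKM in ATlo. Of 7 immune markers, 6 stayed under 0.1 FPKM in all libraries, Ptprc among them, and the sum of 8.78 to 14.9 FPKM in AThi and 4.37 to 4.67 FPKM in ATlo was carried by Cd68, a lysosomal membrane protein gene. Fibroblast, endothelial and endocrine markers summed to at most 0.170 FPKM in any library, with Col1a2, Dcn, Lum, Kdr, Ins1, Ins2 and Gcg at 0 throughout. Acinar markers summed to 10.8 to 11.7 FPKM in AThi and 11.5 to 12.9 FPKM in ATlo, with Cpa1, Pnlip and Ptf1a at 0. In bulk libraries, a change in all cells and a change in the share of cells that express a gene cannot be told apart.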

How the data were processed

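Messenger RNA was sequenced from 2 AThi and 3 ATlo libraries. Per the labels' protocols, the kit kept strand. The authors deposited FPKM values with 2 decimals, 1 column per library. The submitters' processing notes list, without roles, the tools STAR, featureCounts, bcl2fastq and DESeq2, and GRCm38 (mm10) as the build. What is not given in the sources used here is the annotation, the strand setting, the handling of multiply mapped reads and the FPKM formula. Values are relative within a library.

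Low genes, under a 5-library mean of 1 FPKM, were left out, and the other 11397 of 52459 were tested for group with limma 3.58.1 (lmFit, eBayes with trend; R 4.3.3). The scale was log2(FPKM + 0.5), tests were two-sided, no further term was fitted, and Benjamini-Hochberg adjustment ran over all tested genes. The pseudocount makes the fold changes of low genes too small. Percentiles are over the tested genes. The depth was implied from single-exon genes of the GENCODE M21 annotation of GRCm38, whose length-scaled values were whole multiples of a step per library (99.7% to 100% of values within 0.1 of a step). A count of 3 reads on 1 kilobase equals 0.067 to 0.109 FPKM, a floor that covers counting error only.

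The members, the 8 lists of related genes and the markers were chosen with earlier results of these data known. Named were all members, up to 4 genes per list with the largest absolute log2 fold change among called genes averaging 2 FPKM or more, and the 3 genes nearest to each member in profile. For 1 gene of this rule the values are not reported here. The alternatives were other pseudocounts (0.1 and 1), filters (none and 5 FPKM), scalings (TPM and aligned medians) and moderation (no trend, robust), a replicate block, and each library left out.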

Additional observations from a re-analysis of the deposited data

How the results depend on the processing

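All 8 members kept their direction in all 14 alternative fits, and Fos, Fosb, Fosl1, Fosl2, Junb and Atf3 kept an adjusted p under 0.05 in limma in each of them. Their highest adjusted p was 0.0336, for Fosb without AThi replicate 2. Jun lost the call with no filter on low values (1.74, adjusted p 0.0848) and with robust moderation (1.74, adjusted p 0.0819). Jund lost it with no filter (0.79, adjusted p 0.138), without trend (0.79, adjusted p 0.0536) and with robust moderation (0.79, adjusted p 0.0993). With each library left out in turn, the log2 fold change of Jun was 1.11 to 2.38 and that of Jund 0.45 to 1.12, and 6 to 8 members were called. The cause was not tested. Over all genes, 5884 were called, against 4309 to 5718 with a library left out, 1715 to 2467 of them higher in AThi. With a minimum mean of 5 FPKM, which leaves fewer genes to test, 1683 were higher in place of 2529. Aligning medians shifted the members' fold changes by less than 0.1 and gave 3039 higher and 2903 lower calls, against 2529 and 3355 as deposited. Over the other named genes and the counts in the lists, 24 calls were lost, 31 counts moved by over 1.5 times and 0 values changed sign.

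The labels give replicate numbers 1 and 2 to both populations, and the same-numbered libraries carry codes with a common beginning whose meaning is not stated. Deviations from the group means correlated at 0.20 (number 1) and 0.30 (number 2) across 11397 genes, which are not independent replicates. With 2 AThi libraries, their deviations mirror each other, so both values come from a single difference between these libraries. AThi replicate 1 was at -0.30 with ATlo replicate 2 and at 0.06 with ATlo replicate 3. AThi replicate 2 was at -0.20 with ATlo replicate 1 and at -0.06 with ATlo replicate 3. With the number as a block, 5909 genes and all 8 members were called, and log2 fold changes were 1.68 ± 0.08 for Jun, 0.63 ± 0.08 for Jund and 1.84 ± 0.13 for Atf3 (SE). Under the block, 1 kinase gene rose in place of 4, and 6 heat-shock, 2 immediate-early and 2 stress response genes fell in place of 3, 1 and 1, while counts in the other lists stayed within 1.5 times. The difference of AThi and ATlo was 1.74 and 1.62 for Jun between libraries numbered 1 and 2, and 1.53 and 2.16 for Atf3. ATlo replicate 3 shares its number with no AThi library, so it adds nothing to the group differences of the block fit. This fit leaves 1 residual degree of freedom, against 8.12 that the moderation takes from all genes. Its small SE values therefore rest mostly on the moderation.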
